A study of Mus musculus with 2 samples.

Results

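The genes described here are 10 components of the Notch pathway: the receptor genes Notch1 and Notch2, the ligand genes Jag1 and Jag2, Rbpj, the transcriptional repressor genes Hes1, Hes6 and Hey1, and the pathway regulators Nrarp and Dtx1. They were chosen by name from 49939 annotated genes of all kinds, and every ATAC-seq peak overlapping the annotated span of a member, or the 10 kb on either side of it, was taken. This gave 123 of the 128129 peaks of the Tle4cKO library and 122 of the 128737 peaks of the WT library.

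ATAC-seq uses the Tn5 transposase to insert sequencing adapters into open chromatin, so that peaks mark accessible DNA. Macrophages were sorted from mouse colon as cells negative for Siglec-F, low for Ly6C and positive for CD64. The Tle4cKO library came from male C57BL/6 mice aged 18.9 weeks with loxP-flanked Tle4 alleles and Lyz2-Cre (Tle4f/f Lyz2-Cre), and the WT library from males of the same strain and age that carry Lyz2-Cre alone. Both groups therefore carry the Cre transgene, which is driven by the Lyz2 gene of myeloid cells and is not limited to macrophages. Cells of 2 mice were pooled into 1 library per genotype. There are no replicates, no test between genotypes was possible, and each difference below describes these libraries.

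When a ligand of the Jagged or Delta type on one cell binds a Notch receptor on its neighbour, the receptor is cut and its intracellular part moves to the nucleus. There it joins the DNA-binding protein RBPJ and activates target genes such as those of the HES and HEY families. HES proteins repress transcription by recruiting corepressors of the Groucho/TLE family, to which TLE4, the product of the deleted gene, belongs. RBPJ itself can hold corepressors at its targets when no cleaved receptor is present. In the intestine Notch is best known for the choice between absorptive and secretory epithelial cells, and in myeloid cells Notch2 for the development of certain monocytes and dendritic cells.

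The peaks across the annotated starts are the elements common to the members, and promoter sequences of RefSeq (build GRCm38.p6, the assembly of mm10) are shown for 6 genes. The first 4 lay under high peaks and the last 2 under much lower ones. Each runs 5′ to 3′ in the direction of transcription over 300 bases, from 250 before the start to 50 from it onwards. Capitals mark, on either strand, the core letters of RBPJ sites (TGGGAA), the N box known from HES proteins (CACNAG) and the E box CACGTG.
Rbpj, chr5:53590096-53590395, plus strand: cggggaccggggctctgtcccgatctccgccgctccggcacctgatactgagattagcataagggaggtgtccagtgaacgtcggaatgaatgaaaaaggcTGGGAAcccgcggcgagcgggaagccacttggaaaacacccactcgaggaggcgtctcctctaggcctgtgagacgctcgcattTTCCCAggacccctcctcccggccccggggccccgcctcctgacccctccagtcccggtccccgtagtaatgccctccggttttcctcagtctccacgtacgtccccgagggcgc
Notch1, chr2:26503773-26504072, minus strand: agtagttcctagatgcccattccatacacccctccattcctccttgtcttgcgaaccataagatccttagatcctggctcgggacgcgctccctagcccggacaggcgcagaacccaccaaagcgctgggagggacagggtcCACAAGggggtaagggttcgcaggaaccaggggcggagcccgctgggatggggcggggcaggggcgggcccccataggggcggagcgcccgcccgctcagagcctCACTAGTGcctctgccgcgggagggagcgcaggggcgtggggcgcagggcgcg
Notch2, chr3:98013288-98013587, plus strand: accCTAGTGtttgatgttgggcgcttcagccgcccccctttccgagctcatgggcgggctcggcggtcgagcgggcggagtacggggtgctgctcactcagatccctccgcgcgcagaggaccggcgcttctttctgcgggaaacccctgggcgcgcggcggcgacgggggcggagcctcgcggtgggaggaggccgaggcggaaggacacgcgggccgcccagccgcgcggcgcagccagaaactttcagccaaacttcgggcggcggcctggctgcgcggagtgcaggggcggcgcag
Nrarp, chr2:25180508-25180807, plus strand: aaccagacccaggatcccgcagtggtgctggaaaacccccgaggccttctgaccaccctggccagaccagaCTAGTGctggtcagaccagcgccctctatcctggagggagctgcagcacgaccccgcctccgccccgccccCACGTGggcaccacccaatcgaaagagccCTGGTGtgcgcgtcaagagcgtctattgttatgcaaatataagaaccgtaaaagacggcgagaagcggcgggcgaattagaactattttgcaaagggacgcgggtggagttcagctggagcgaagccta
Dtx1, chr5:120711620-120711919, minus strand: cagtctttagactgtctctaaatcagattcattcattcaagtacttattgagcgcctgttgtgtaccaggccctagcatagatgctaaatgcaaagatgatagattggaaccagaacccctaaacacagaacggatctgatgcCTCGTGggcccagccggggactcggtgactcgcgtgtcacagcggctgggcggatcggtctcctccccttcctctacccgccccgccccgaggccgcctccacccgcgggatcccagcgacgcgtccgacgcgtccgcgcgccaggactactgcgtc
Jag2, chr12:112929446-112929745, minus strand: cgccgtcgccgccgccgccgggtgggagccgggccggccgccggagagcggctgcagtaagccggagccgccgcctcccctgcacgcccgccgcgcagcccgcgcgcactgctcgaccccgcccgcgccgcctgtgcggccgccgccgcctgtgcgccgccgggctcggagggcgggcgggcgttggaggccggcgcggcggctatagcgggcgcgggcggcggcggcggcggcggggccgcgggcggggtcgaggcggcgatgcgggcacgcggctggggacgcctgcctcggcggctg

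All 300 bases of each of these windows lay under a peak in both the Tle4cKO and the WT list. The sequence table held 10 promoter windows for 8 of the members, 2 of them overlapping windows at Rbpj and 2 at Hes6. TGGGAA was found in 2 of the 10, the overlapping pair at Rbpj, and in 25.6% of all 32851 promoters of that length. CACNAG was found in 5 of the 10, at Notch1, Notch2, Nrarp, Dtx1 and Hes6, and in 42.5% of all. CACGTG lay in 1, that of Nrarp, against 7.15% of all. The longer RBPJ letters GTGGGAA, which contain TGGGAA, occurred in 0 of the 10 and in 6.38% of all promoters, and GTGNGAA in 0 and 14.2%. GAGGAAG, for the macrophage factor PU.1, lay in the Dtx1 window alone and in 13.6% of all. TGTGGT, for RUNX factors, and TGANTCA, for AP-1, lay in 0 of the 10 windows and in 16.8% and 7.81% of all. These are letter matches in short windows and do not show binding or its absence. The windows were rich in G and C, with 55.7% at Jag1 and 86.0% at Jag2 as the extremes against a median of 52.7% over all promoters.

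Tle4, the targeted gene, had 14 peaks in Tle4cKO, 3 of them Tle4cKO-only, and 22 in WT, 12 of them WT-only, with 10 kb on either side. Over the whole lists, 23.5% of Tle4cKO peaks and 27.1% of WT peaks overlapped no peak of the other list. The Tle4 peaks were not compared with peaks of the same pileup. Peaks in the deleted part could not be picked out without exon positions, so these counts do not check the deletion itself. The macrophage genes were accessible in both libraries. All 8 macrophage genes examined, among them Csf1r, Cx3cr1, Adgre1 and C1qa, had a peak within 1000 bp of a gene end in each list. Genes of other cell types also had peaks. A gene-end peak was present in Tle4cKO and in WT at 1 and 3 of 5 endothelial genes, at 3 and 3 of 5 epithelial genes, at 3 and 2 of 4 T cell genes, at 4 and 4 of 4 B cell genes, at 2 and 2 of 3 eosinophil genes, at 1 and 3 of 3 neutrophil genes and at 2 and 2 of 3 fibroblast genes. Emcn, Krt20 and Dcn had no peak in either. The highest pileup at a macrophage gene lay between 94 and 188 in Tle4cKO and between 130 and 217 in WT, and at the genes of other cell types it did not exceed 132 in Tle4cKO and 178 in WT. Whether other cells contributed to the Notch gene peaks was not tested. The deposited value of a peak is the pileup at its summit, a whole-number coverage signal. Its median over all peaks was 20 in Tle4cKO and 28 in WT, read totals are unknown, and whether the libraries were scaled to each other is not stated.

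The strongest accessible sites of the Notch genes were present in both libraries, and most peaks found in 1 list were weak. Of the 123 Tle4cKO peaks, 27 overlapped no WT peak and are called Tle4cKO-only (22.0%, exact 95% interval 15.0% to 30.3%, which covers counting error only). The background was 23.5% of all Tle4cKO peaks. Of the 122 WT peaks, 29 were WT-only (23.8%, 16.5% to 32.3%), beside 27.1% of all WT peaks. Both shares were near their background. Weak peaks are more often found in 1 list, so each member peak was also given the list-only share of all peaks with its own pileup. Summed over the members these shares came to 22.1 Tle4cKO-only and 26.5 WT-only peaks. Pileups ran between 8 and 25 with a median of 11 in the Tle4cKO-only peaks, and between 9 and 51 with a median of 12 in the WT-only peaks. None of the 41 Tle4cKO peaks in the upper quartile of their list (pileup of at least 47) was Tle4cKO-only, and none of the 40 WT peaks in theirs (at least 67) was WT-only. At or above its list's median pileup, 1 Tle4cKO-only peak of 74 such peaks was found, at Jag2, where the background is 1.76%. The WT list had 5 of 74, at Notch1, Notch2 and Rbpj, where the background is 4.00%.

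**Figure D1:**
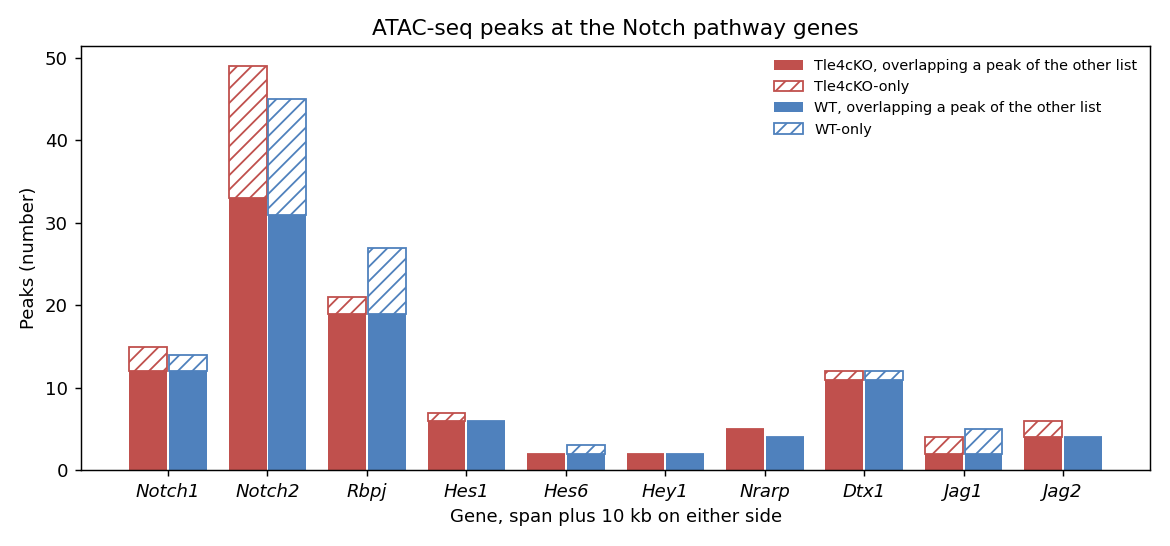
Number of ATAC-seq peaks (vertical axis) at each of the 10 genes with 10 kb on either side, for the Tle4cKO library (left bar) and the WT library (right bar); filled parts are peaks that overlap a peak of the other list and hatched parts are list-only peaks. Notch2 held the most peaks, 49 in Tle4cKO and 45 in WT, and Rbpj differed most, with 2 Tle4cKO-only and 8 WT-only peaks.

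Mutual best matches by pileup among overlapping peaks were paired, which gave 93 pairs at the members out of 92335 in all. At the members the ratio of Tle4cKO to WT pileup had a median of 0.748 and over all pairs of 0.741, a shift of -0.43 on the log2 scale. The shift varied with the summed pileup of a pair. In 50 bins of it the median over all pairs was 0 in the lowest, -0.58 at its most negative and -0.23 in the highest. Peaks without a partner have no ratio. Each log2 ratio is therefore given relative to the median of pairs with like summed pileup, in 50 bins, and called the relative ratio. Its median over the 93 pairs was 0.04 on the log2 scale, with 51 above 0, 38 below and 4 at 0, so that 54.8% lay above 0 beside 47.6% of all pairs. Notch2 supplied 31 of the pairs, and without it the median was -0.0065. Past 1.5-fold on this scale were 5 pairs (5.38%), 3 higher and 2 lower in Tle4cKO, where the background was 7.36% in either direction, 3.55% higher and 3.81% lower. With each ratio set against the median of all pairs instead, the split was 5 higher and 1 lower (6.45%, where 8.74% of all pairs were past the limit). The pileup as deposited was higher in Tle4cKO than in WT in 7 of 93 pairs (7.53%), against 6.59% of all pairs. For 1 of the 93 pairs, at Notch1, the exact 95% counting interval of the ratio excluded the ratio of pairs with like pileup, as it did for 1.30% of all pairs. Such intervals cover counting error only and are approximate for a summit, which is a maximum.

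Position and width were also close. Summits of paired peaks lay a median of 30 bp apart at the members and 44 bp over all pairs, and 53 of 93 lay within 50 bp of each other (57.0%, against 53.5% of all pairs). Tle4cKO peaks were narrower than their WT partners in 58 of 93 pairs (62.4%, against 69.5% of all), with a median difference of -41 bp at the members and -61 bp over all pairs.

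**Figure D2:**
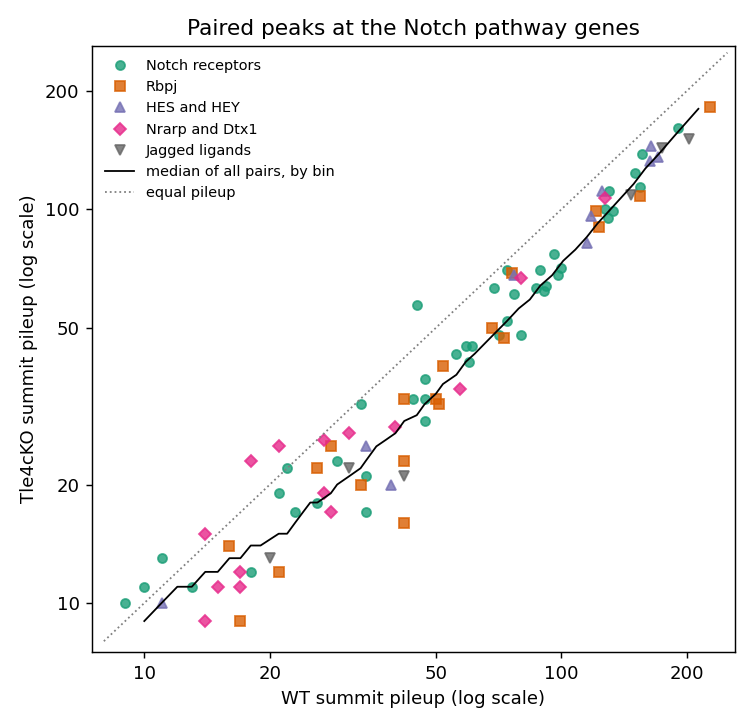
Summit pileup of each of the 93 paired peaks in Tle4cKO (vertical axis) against WT (horizontal axis), both on log scales, with symbols by gene group; the solid line joins the median pileups of all 92335 pairs in 50 bins and the dotted line marks equal pileup. Most points lie along the solid line, and the Notch1 pair with pileups of 57 in Tle4cKO and 45 in WT stands above it.

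The receptor gene Notch2 (chr3:98013538-98150367) held the most peaks, 3.12 per 10 kb in Tle4cKO and 2.87 in WT. Its start was covered by a peak of pileup 114 in Tle4cKO (chr3:98012963-98014430) and 154 in WT, a ratio of 0.740 (95% interval 0.576 to 0.949) beside 0.781 for pairs of like pileup. The highest Tle4cKO peak lay inside the gene, 53322 bp from the start, with 124 in Tle4cKO and 150 in WT. Further peaks inside the gene had 111 in Tle4cKO and 130 in WT at 13902 bp, and 100 in Tle4cKO and 127 in WT at 32856 bp. These were high in both libraries. Of the 31 pairs, 21 had a relative ratio above 0, 7 below and 3 at 0, with a median of 0.13 on the log2 scale or 1.09-fold, and 0 pairs were past 1.5-fold. The largest relative ratio was 1.44-fold, at a peak with a pileup of 22 in each library. The median stayed above 0, between 0.06 and 0.13, in all 8 settings with a scaling, and was -0.35 with none.

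At Notch2 16 peaks were Tle4cKO-only and 14 WT-only, where the list-only shares at the same pileups summed to 8.84 and 12.0. Which list had more changed with the setting: Tle4cKO in 4, WT in 2 and neither in 2 of 8 settings. Along the gene the accessible sites were unevenly strong. A division at 80 kb from the start, chosen after the values were seen, put 25 Tle4cKO peaks with pileups of 11 to 124 and 26 WT peaks with pileups of 13 to 154 on the start side. Of these, 0 were Tle4cKO-only and 3 WT-only, where the shares at the same pileups summed to 0.835 and 1.64. On the far side lay 24 Tle4cKO peaks, 16 of them Tle4cKO-only, and 19 WT peaks, 11 of them WT-only, where these sums were 8.0 and 10.3. The median pileup there was 13 in Tle4cKO and 11 in WT. All 16 Tle4cKO-only peaks had pileups of 9 to 16, and 7 of them no longer counted as Tle4cKO-only when peaks within 500 bp of the other list were treated as shared. The 3 WT-only peaks on the start side were higher, with pileups of 37 (chr3:98035720-98036129), 34 (chr3:98061139-98061524) and 28 (chr3:98051642-98051886). Of all WT peaks with those pileups 8.54%, 9.42% and 12.6% were WT-only. At 2 places a single WT peak matched 2 Tle4cKO peaks. A WT peak of 1981 bp and pileup 96 overlapped Tle4cKO peaks of 746 bp (pileup 43) and 986 bp (pileup 77), and a WT peak of 522 bp and pileup 44 overlapped Tle4cKO peaks of 450 bp (27) and 241 bp (33).

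Notch1, the other receptor gene (chr2:26457902-26503822), held 15 Tle4cKO and 14 WT peaks. Its highest peak lay inside the gene, 20263 bp from the start, with a pileup of 161 in Tle4cKO (chr2:26482907-26484152) and 190 in WT, a ratio of 0.847 (0.683 to 1.05) beside 0.823 at like pileup. The next, 10548 bp from the start, had 138 in Tle4cKO and 156 in WT. The start was covered by a broad peak of 2447 bp in Tle4cKO and 2457 bp in WT, wider than 99% of each list, with pileups of 99 in Tle4cKO and 133 in WT. The summits of this pair lay 5 bp apart. For each of these 3 pairs the counting interval included the ratio of like pairs.

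A site inside Notch1, 27456 bp from the start, was the exception. At chr2:26475941-26476722 the pileup was 57 in Tle4cKO and 45 in WT, a ratio of 1.27 (0.842 to 1.92) where pairs of like pileup had 0.695. It was therefore 1.82-fold higher in Tle4cKO on the relative scale, above 99.3% of all pairs, and it is the pair named above whose interval excluded the like ratio. Its neighbour at chr2:26474878-26475754 had 48 in Tle4cKO and 71 in WT, close to the like ratio. The strongest list-only peak of all 10 genes was also in Notch1, a WT-only peak of pileup 51 (chr2:26485935-26486202) that was 268 bp wide and lay 1783 bp from the nearest Tle4cKO peak. Of WT peaks with that pileup, 5.85% were WT-only. The other list-only peaks of Notch1 were 3 Tle4cKO-only peaks of pileup 8 to 9 and 1 WT-only peak of 15, all in the part of the gene farthest from the start.

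**Figure D3:**
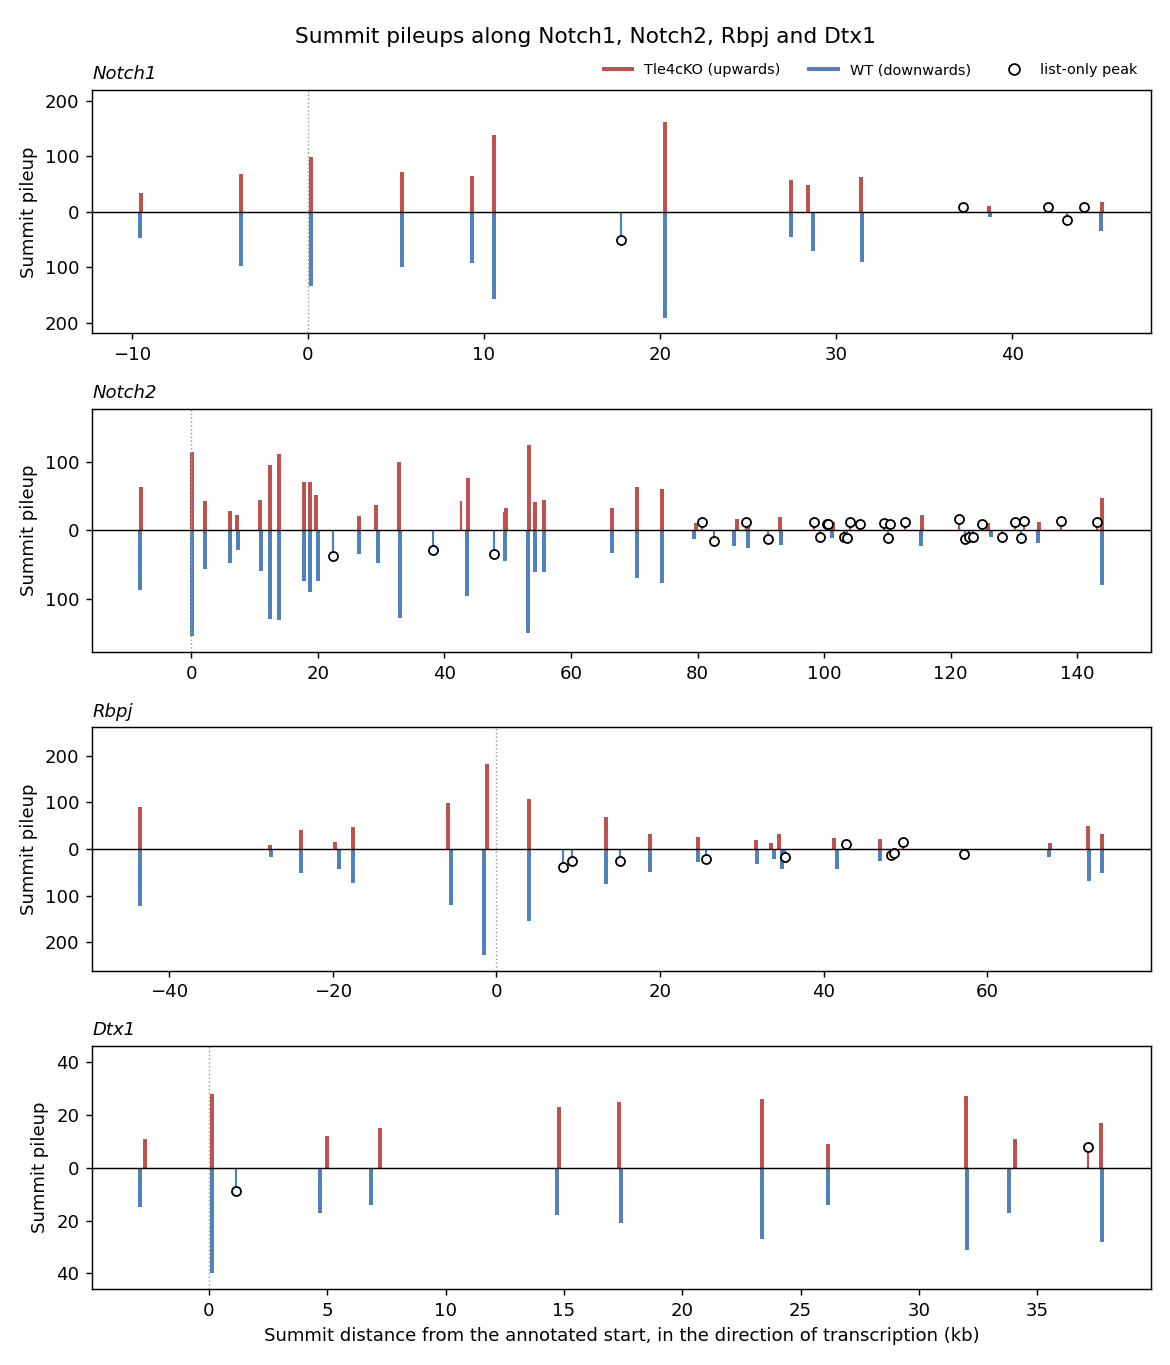
Summit pileup of every peak along Notch1, Notch2, Rbpj and Dtx1 against the distance of the summit from the annotated start in kb, with Tle4cKO drawn upwards and WT downwards; open circles mark list-only peaks. High peaks are mirrored between the libraries, and list-only peaks crowd the far side of Notch2, where most pileups are low.

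Rbpj (chr5:53555779-53657445), which encodes the DNA-binding partner of the cleaved receptors, had the most uneven list-only counts of the 10 genes. It held 21 Tle4cKO peaks, 2 of them Tle4cKO-only, and 27 WT peaks, 8 of them WT-only, where the shares at the same pileups summed to 2.53 and 4.80. The WT-only peaks all lay inside the gene, with pileups of 38, 25, 25, 21, 17, 13, 11 and 9, and the Tle4cKO-only peaks had 10 and 15. The highest WT-only peak, at chr5:53598396-53598595, was 200 bp wide and lay 3649 bp from the nearest Tle4cKO peak, and 10.9% of WT peaks of its pileup were WT-only. More WT-only than Tle4cKO-only peaks were found in 7 of 8 settings. The exception was the 40000 highest peaks of each list, which held 0 and 0.

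The 2 annotated starts used for Rbpj lie inside its span, and no peak of either list covered the low-coordinate end of that span. The peak across these starts was the highest of all 10 genes. It had a pileup of 182 in Tle4cKO (chr5:53588403-53591170, 2768 bp) and 227 in WT (2575 bp). The ratio was 0.802 (0.656 to 0.979), beside 0.854 for like pairs. Within this broad peak the summit lay 384 bp farther from the annotated start in WT than in Tle4cKO. Of the 19 pairs, 8 had a relative ratio above 0 and 11 below, with a median of -0.04 that turned to 0.01 among the 40000 highest peaks. The 2 pairs past 1.5-fold were both lower in Tle4cKO. At chr5:53570508-53571192 the pileup was 16 in Tle4cKO and 42 in WT, a ratio of 0.381 (0.200 to 0.692) beside 0.676 at like pileup, or 0.563 on the relative scale, which 0.929% of all pairs fell below. At chr5:53562385-53562822 it was 9 in Tle4cKO and 17 in WT, a ratio of 0.529 (0.208 to 1.26) beside 0.800. Both lay on the low-coordinate side of the starts shown above, within the annotated gene.

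The ligand genes differed from each other at their starts. Jag1 (chr2:137081451-137116520) had a peak of 143 in Tle4cKO and 174 in WT over 3701 bp and 3730 bp, among the widest of each list, with a ratio of 0.822 (0.654 to 1.03) beside 0.807 at like pileup. Its other pair, over the neighbouring gene Slx4ip, had 13 in Tle4cKO and 20 in WT. Its list-only peaks, 2 in Tle4cKO and 3 in WT, had pileups of 9 to 10. Of the WT-only peaks 2 lay over Slx4ip, so that without peaks over other protein-coding genes the counts were 2 Tle4cKO-only and 1 WT-only. Jag2 (chr12:112907803-112929812) had a start peak that was narrower than that of Jag1, still broad, and much lower. This start peak had 22 in Tle4cKO over 2364 bp and 31 in WT over 2391 bp, both wider than 99% of their lists. Its pileups were slightly above the list medians of 20 in Tle4cKO and 28 in WT. Higher peaks lay elsewhere, with 109 in Tle4cKO and 147 in WT inside the gene and 151 in Tle4cKO and 202 in WT beyond its end. The latter lay at the outer edge of the flank, with its Tle4cKO summit 31690 bp from the start. Whether it belongs to Jag2 was not tested. Jag2 also held the Tle4cKO-only peak of pileup 25 at chr12:112902294-112902749, 3920 bp from the nearest WT peak, and 3.51% of Tle4cKO peaks of that pileup were Tle4cKO-only. A site over the neighbouring gene Nudt14 had 21 in Tle4cKO and 42 in WT, a ratio of 0.500 (0.281 to 0.864) beside 0.684. The other Tle4cKO-only peak of Jag2 had a pileup of 9, and it held 0 WT-only peaks.

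The HES and HEY repressor genes are short and carried strong, paired peaks. Hes1 (chr16:30065357-30067796), the best known Notch target, had 111 in Tle4cKO and 125 in WT across its lower-coordinate gene end. The adjacent flank peak at chr16:30063256-30064712 was higher, with 145 in Tle4cKO and 164 in WT, and the peak inside the gene had 96 in Tle4cKO and 118 in WT. Beyond the gene lay a peak of 82 in Tle4cKO and 115 in WT. The remaining pairs were weak, with 25 in Tle4cKO and 34 in WT, and 10 in Tle4cKO and 11 in WT. Of the 6 pairs 4 had a relative ratio above 0, 1 below and 1 at 0, with a median of 0.12 on the log2 scale or 1.08-fold. The gene-end pair had the largest, with a ratio of 0.888 (0.681 to 1.16) beside 0.763 at like pileup, an interval that includes the like ratio. Hes1 had 1 Tle4cKO-only peak, of pileup 11, and 0 WT-only peaks.

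Hes6 (chr1:91411483-91414038), whose product is known to counteract HES1, had a peak across its start with 136 in Tle4cKO and 170 in WT and a ratio of 0.800 beside 0.807 at like pileup. A flank peak at chr1:91405238-91406131 had 20 in Tle4cKO and 39 in WT, a ratio of 0.513 (0.283 to 0.901) beside 0.676. The WT-only peak of Hes6 had a pileup of 20 and lay in the same flank. Hey1 (chr3:8663359-8667038) had 2 peaks in each library and no list-only peak. The peak across its higher-coordinate gene end, which also lay over the neighbouring gene LOC115489673, had 133 in Tle4cKO and 163 in WT. The one inside the gene had 68 in Tle4cKO and 77 in WT. The ratios of these 2 pairs, 0.816 and 0.883, stood beside 0.795 and 0.709 at like pileup, and both intervals included those values.

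**Figure D4:**
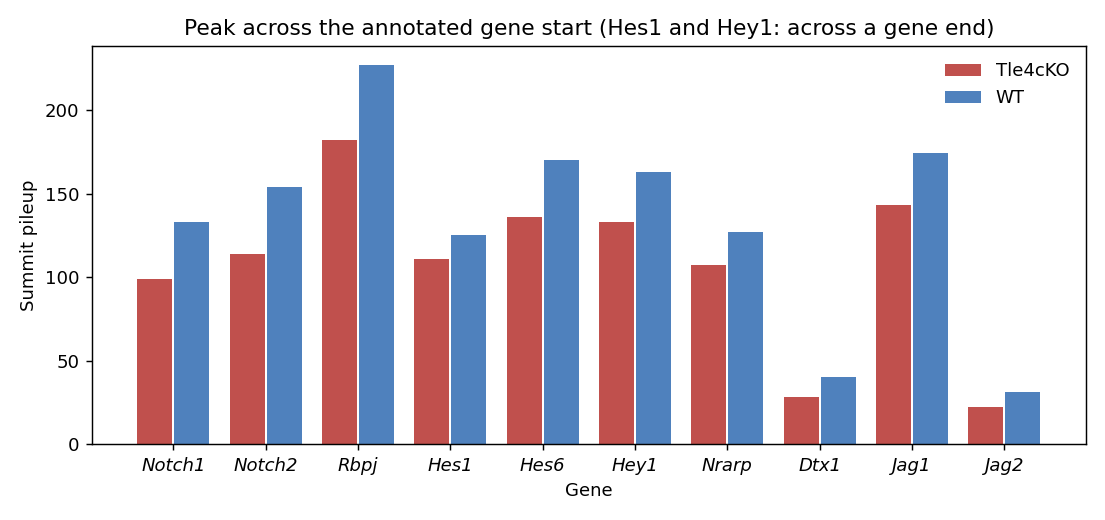
Summit pileup of the peak across the annotated start of each gene (for Hes1 and Hey1, across a gene end) in Tle4cKO (left bar) and WT (right bar), 1 library each and without error bars. The bars are lower in Tle4cKO for all 10 genes as deposited, and Dtx1 and Jag2 stand below the other 8 in both libraries, with 28 and 22 in Tle4cKO and 40 and 31 in WT.

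The feedback gene Nrarp (chr2:25180758-25183339) encodes a small ankyrin-repeat protein that is induced by Notch and dampens it. Its start peak had 107 in Tle4cKO and 127 in WT, a ratio of 0.843 (0.645 to 1.10) beside 0.763 at like pileup, with summits 1 bp apart. The flank peaks had 67 in Tle4cKO and 80 in WT over the neighbouring gene Tor4a, 35 in Tle4cKO and 57 in WT, and 19 in Tle4cKO and 27 in WT. Nrarp had 0 list-only peaks in either list, and a further Tle4cKO peak of pileup 15 shared a WT partner with its neighbour.

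Dtx1 (chr5:120680203-120711867), which encodes the ubiquitin ligase Deltex1, a regulator of Notch, had the lowest maximum pileup of the 10 genes. Its highest pileup was 28 in Tle4cKO and 40 in WT, at the start, with a ratio of 0.700 (0.416 to 1.16) beside 0.683. These pileups were above the list medians of 20 in Tle4cKO and 28 in WT. Inside the gene 2 sites were past 1.5-fold, both higher in Tle4cKO. At chr5:120696707-120697420 the pileup was 23 in Tle4cKO and 18 in WT, a ratio of 1.28 (0.660 to 2.51) beside 0.708, and at chr5:120693737-120694788 it was 25 in Tle4cKO and 21 in WT, a ratio of 1.19 (0.640 to 2.24) beside 0.679. The pairs on either side of them, with 26 in Tle4cKO and 27 in WT and with 15 in Tle4cKO and 14 in WT, were 1.42-fold and 1.32-fold higher on the relative scale. All 4 intervals included the like ratio, so that no difference from like pairs was detectable beyond counting error. Over the 11 pairs of Dtx1 the median was 0.04, with 6 above 0 and 5 below, and over 7 settings with a scaling it ran between -0.01, with 50 kb on either side or scaling by the median of all pairs, and 0.40 over the gene body alone. Dtx1 had 1 Tle4cKO-only peak of pileup 8, over the neighbouring gene Rasal1, and 1 WT-only peak of pileup 9.

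**Figure D5:**
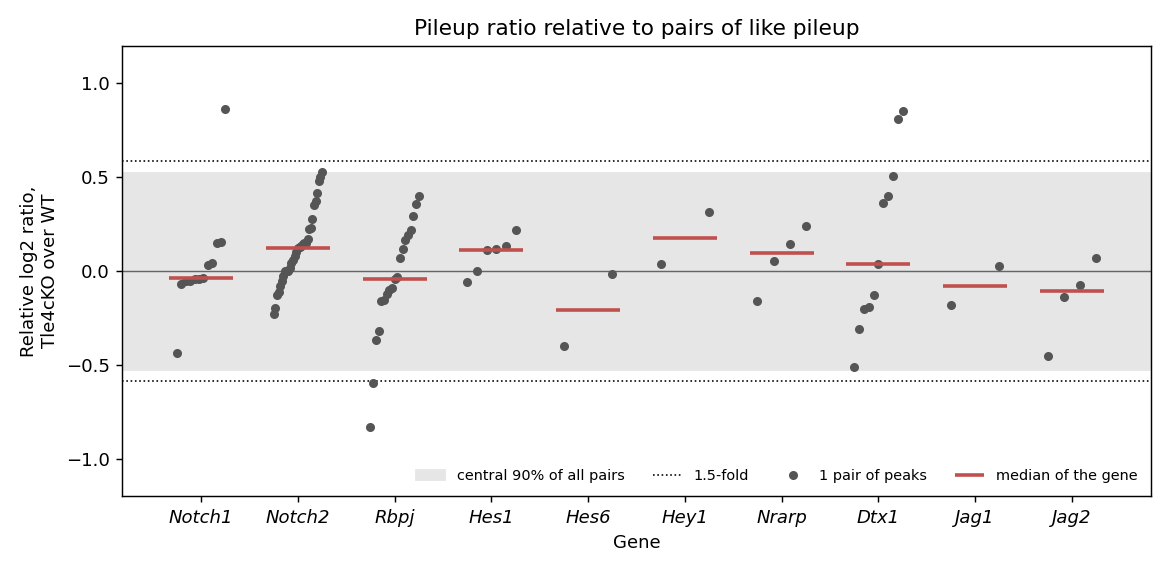
Relative log2 ratio of Tle4cKO over WT pileup for each pair of peaks, by gene; red bars are the gene's median, the grey band holds the central 90% of all pairs and dotted lines mark 1.5-fold. The 5 points outside the dotted lines are 1 pair at Notch1 and 2 at Dtx1 above, and 2 at Rbpj below.

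At the rest of the pathway, too, the shares of list-only peaks were not above those of all peaks. At 46 other Notch pathway genes lay 517 Tle4cKO peaks, 96 of them Tle4cKO-only (18.6%, beside 23.5% of all), and 495 WT peaks, 107 of them WT-only (21.6%, beside 27.1%). The shares at the same pileups summed to 103 and 111. Of the genes, 16 had more Tle4cKO-only peaks, 20 more WT-only and 10 equal numbers. The 382 pairs had a median relative ratio of 0.0 on the log2 scale, and 6 were more than 1.5-fold higher and 13 lower in Tle4cKO (4.97% together, beside 7.36%). The coactivator gene Maml2 had 9 Tle4cKO-only peaks and 14 WT-only ones. Itch, Mib1, Fbxw7 and Dtx2, which encode ubiquitin ligases or a subunit of one, had 1 Tle4cKO-only and 6 WT-only at Itch, 0 and 5 at Mib1, 4 and 8 at Fbxw7, and 0 and 3 at Dtx2. Maml2 and these genes were picked for their uneven counts. The receptor genes Notch3 and Notch4 each held 0 Tle4cKO-only peaks and 1 WT-only peak, with highest pileups of 80 in Tle4cKO and 120 in WT at Notch3 and of 144 in Tle4cKO and 178 in WT at Notch4. The Delta-type ligand gene Dll4 had a highest pileup of 150 in Tle4cKO and 187 in WT with 0 Tle4cKO-only and 1 WT-only peak, and Dll1 had 26 in Tle4cKO and 38 in WT with 1 and 0.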

How the data were processed

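ATAC-seq peak lists of 1 Tle4cKO and 1 WT library were used, each deposited by the authors with position, width, summit and pileup per peak. The pileup is a coverage signal in whole numbers, per the file headers and values. Per the submitters' processing notes the build was mm10 and the tools included MACS2 2.1.1, a peak caller, Bowtie2 2.2.5, an aligner, and cutadapt 1.14, their settings not being stated. The sources used here give neither thresholds nor read shifting, duplicate handling or depth.

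Peaks sharing at least 1 bp counted as shared. Gene spans came from a RefSeq table of GRCm38.p6 and promoter sequences from RefSeq; Hes1 and Hey1 had no promoter entry matched. Relative ratios used 50 bins of summed pileup, shares and ratios exact 95% intervals. The overlap and pairing steps were run on a list simulated from the WT peaks, with unchanged positions and with changes planted at strong peaks only. That run does not test calls at weak peaks. Computation used Python 3.11.15, numpy 2.4.6, pandas 2.3.3 and scipy 1.17.1. The members, gene lists and settings were chosen with earlier results of these data known, and the list-only shares at like pileup were added after values were seen. Named single peaks are the highest, the start peak, list-only peaks at or above their list's median pileup, pairs past 1.5-fold and others that complete a gene's account. The other pathway genes named are those of the 6 with the most uneven list-only counts, of which 1 is not reported here, and Notch3, Notch4, Dll1 and Dll4.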

Additional observations from a re-analysis of the deposited data

How the results depend on the processing

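Over all 10 genes, the numbers of peaks, list-only peaks and pairs past 1.5-fold in either direction, and the median ratio, width difference and summit distance, were recomputed under each alternative, and those that moved follow. With 50 kb on either side there were 220 Tle4cKO and 215 WT peaks, of which 41 were Tle4cKO-only and 45 WT-only. The list-only shares of all peaks were 23.5% in Tle4cKO and 27.1% in WT. With a pileup of at least 15, 3 of 85 Tle4cKO peaks were Tle4cKO-only and 12 of 98 WT peaks were WT-only. The same cut was put on lists with median pileups of 20 in Tle4cKO and 28 in WT, and it kept more WT peaks. Of all peaks with a pileup of exactly 15, 13.7% were list-only in Tle4cKO and 44.9% in WT. Among the 40000 highest peaks of each list there were 47 Tle4cKO and 45 WT peaks, 0 Tle4cKO-only and 0 WT-only, 1 pair past 1.5-fold and a median summit distance of 16 bp. At either cut the list-only share of all peaks was not computed. Counting peaks within 500 bp as shared left 17 of 123 Tle4cKO peaks Tle4cKO-only. It left 22 of 122 WT peaks WT-only, a count not classed as moved. In that setting 19.98% of all Tle4cKO peaks and 23.05% of all WT peaks were list-only. Set against the median of all pairs, 6 pairs were past 1.5-fold, 5 higher and 1 lower in Tle4cKO, in place of 3 and 2. With no scaling the median log2 ratio was -0.42 and 20 pairs were past 1.5-fold, all lower in Tle4cKO, against 32.0% of all pairs. With the fold limit lowered to a ratio of 5 to 4, 21 pairs were past it (22.6%, beside 25.0% of all pairs). For single genes, 60 of 219 values were classed as moved and 159 were not. This class allowed some change, even of sign. The median relative log2 ratio of Rbpj went from -0.04 to 0.01 among the 40000 highest peaks. That of Jag1, which had 2 pairs, went from -0.08 to 0.03 with 50 kb on either side. Neither was classed as moved, so the 159 do not show that single-gene values held across settings. No paired analysis was possible because each genotype has 1 library, and leaving a library out leaves no comparison. Depth is unknown, so a difference at a weak peak was not detectable from counting error, and presence in 1 list depends on the calling threshold.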
